A study of Sus scrofa with 8 samples.

Results

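PPARD and 4 genes of fatty acid handling that PPAR receptors are known to control (ANGPTL4, PLIN2, ACSL1 and CPT1A) were followed in whole blood of 8 female Clawn miniature pigs. The animals were 8 to 9 months old, and each gave 1 array. The 4 control animals ate a standard dry feed. The 4 SDW animals ate that dry feed, water and SDW (shochu distilled water, the residue of distilling the Japanese spirit shochu) in parts of 1:1:1 by weight. The series design gives 12 weeks of feeding, whereas the descriptions of the samples give 14, 15, 16 and 17 weeks for animals 1 to 4 of each diet, so duration on the diet runs in step with the animal number. The labels name no genotype or other agent. Their characteristics call the breed a conventional miniature pig. Whole blood mixes leukocytes, platelets and red cells, and in such a sample fewer cells of a type and less RNA per cell cannot be told apart.

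Members were the non-control probes that the files name as one of the 5 genes, by symbol or by full name. The 5 genes are among 2225 that could be named on the array, and came to 8 of its 43603 probes: 1 each for PPARD, PLIN2 and ACSL1, 2 for ANGPTL4 and 3 for CPT1A. PLIN2 was found under its older symbol ADRP and older name, adipose differentiation-related protein, which the RefSeq pig gene table lists as a synonym of PLIN2 with the same transcript. A probe was kept where 4 or more of the 8 arrays read it well above background, which held for 5 of the 8, 1 per gene, among 17352 kept probes in all. The other ANGPTL4 probe and 2 of the CPT1A probes were not well above background on most arrays.

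PPARD encodes a nuclear receptor that is activated by fatty acids and their derivatives and binds DNA together with a retinoid X receptor. Genes switched on by PPAR receptors take up, store and burn fatty acids in many tissues, including leukocytes. ANGPTL4 is a secreted protein that inhibits lipoprotein lipase, PLIN2 coats lipid droplets, ACSL1 joins long-chain fatty acids to coenzyme A, and CPT1A passes the resulting acyl groups to carnitine at the outer mitochondrial membrane, the controlled step of entry into mitochondrial oxidation.

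The following probe sequences define which stretch of each transcript was read, and the pair for ANGPTL4 is shown because only 1 of them gave usable signal. They are copied from the deposited files, 5′ to 3′, whole (60 bases) or, for ACSL1 and CPT1A, as the first 30 of 60 bases. Capitals mark AATAAA, the canonical polyadenylation hexamer. No genome was used, so only the position in the transcript that the files give is stated.
PPARD, from base 1259: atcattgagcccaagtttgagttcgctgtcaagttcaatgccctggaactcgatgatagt
ANGPTL4, from base 1196, kept: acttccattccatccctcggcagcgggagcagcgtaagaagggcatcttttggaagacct
ANGPTL4, from base 542, not kept: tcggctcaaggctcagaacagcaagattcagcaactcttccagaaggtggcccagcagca
PLIN2, from base 934: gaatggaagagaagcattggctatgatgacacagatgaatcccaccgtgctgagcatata
ACSL1, from base 2950, first bases: ccaccccccagAATAAActctcaggcaagg
CPT1A, from base 4192, kept, first bases: cattgcatgtaaatacgatatgctctttgg

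The hexamer stands in the ACSL1 probe alone among the 8 member probes. It was also in 12.1% of all 43603 probes on the strand printed, and its reverse complement TTTATT was in 4.63%. GC content was 45% for the PPARD and PLIN2 probes, 55% for both ANGPTL4 probes, 40% for ACSL1 and 35% for the kept CPT1A probe, against a median of 40% over all probes.

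All values below are levels, the log2 processed signal minus the log2 75th percentile of the same array, so a level of 0 lies at that percentile. A difference of 1 between levels is a doubling. The 75th percentile of signal lay between 39.9 and 73.1 over the 8 arrays, no spot was saturated, and the share of probes read well above background ran from 35.2% to 43.5%. The 8 arrays were on 3 slides, each with both diets: slide 1 held control 3, SDW 2 and SDW 3, slide 2 held control 2, control 4 and SDW 1, and slide 3 held control 1 and SDW 4. Slide 3 was scanned on another day than the other slides. It stood apart for ACSL1 and ANGPTL4, as described below, and slide, scan day and animal cannot be told apart. The number of arrays limits precision, as does the background for the dim probes. Nothing in the labels says how the animals were housed, so p-values of the diet comparison without slide measure only the spread between these animals. Where slide enters the fit, p-values measure the spread within slides. Slide 3 is a single slide of 2 arrays, so its contrast holds no spread between slides.

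PPARD, the receptor, was a dim probe. Its level in the controls was -1.98, -1.25, -0.99 and -0.77 in animals 1 to 4, and in the SDW animals it was -2.46, -1.95, -0.67 and -2.79. The lowest levels, in SDW 4, SDW 1 and control 1, were not well above background, so PPARD was measured in 3 of 4 controls and 2 of 4 SDW animals. Control animals averaged -1.25 ± 0.52 and SDW animals -1.97 ± 0.93 (SD, n = 4 each). SDW 3 had the highest level of all 8 animals, and the diets overlapped.

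ANGPTL4, the lipoprotein lipase inhibitor, was high in 2 animals of different diet. Its level was 0.71, -2.45, -1.22 and -2.09 in controls 1 to 4, and -4.88, -2.97, -2.03 and 0.30 in SDW 1 to 4. Control 1 and SDW 4, the 2 animals of slide 3, gave processed signals of 90.4 and 49.3, whereas the other 6 animals gave 2.07 to 17.7. Besides these 2, only control 3 and control 4 were well above background, so among the SDW animals ANGPTL4 was measured in SDW 4 alone and the low values of SDW 1, 2 and 3 are at background. The second ANGPTL4 probe, in another stretch of the transcript, was not well above background on any array. Its signal was 15.1 in control 1 and 10.2 in SDW 4, against 2.09 to 4.55 in the other 6, but dim probes of CPT1A, described below, also read highest in these 2 animals.

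PLIN2, the droplet coat protein, varied less. Its level was -1.15, -1.54, -0.91 and -1.32 in controls 1 to 4 and -2.42, -1.31, -0.95 and -1.89 in SDW 1 to 4. SDW 1 and SDW 4 had the lowest levels, SDW 4 was the only animal in which PLIN2 was not well above background, and SDW 2 and SDW 3 lay within the range of the controls.

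ACSL1, the acyl-CoA synthetase, was well above background in every animal and varied most of the 5 genes. Its level was 6.61, 0.41, 2.41 and 1.69 in controls 1 to 4 and -0.38, 0.60, 2.10 and 5.96 in SDW 1 to 4. In processed signal this was 5407 in control 1 and 2486 in SDW 4, and 46.8 to 219 in the other 6 animals. The same 2 animals of slide 3 thus stood above all others, 1 from each diet.

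CPT1A, the carnitine acyltransferase of mitochondrial entry, was also well above background in every animal. Its level was 1.64, 2.32, 2.50 and 2.01 in controls 1 to 4 and 2.22, 1.95, 1.45 and 1.42 in SDW 1 to 4. The whole range was little more than 1 log2 unit, with SDW 3 and SDW 4 lowest and control 3 highest. Of the other CPT1A probes, the one from base 2762 was not well above background on any array, and the one from base 120 was so only in SDW 4, at a signal of 21.7. Both of these dim probes read highest in the animals of slide 3: from base 2762 the signal was 7.92 in control 1 and 5.11 in SDW 4 against 2.22 to 4.64 in the other 6, and from base 120 it was 4.51 in control 1 against 2.31 to 2.80 in those 6. The kept CPT1A probe did not follow this order, and whether the dim ANGPTL4 readings share it was not tested.

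**Figure D1:**
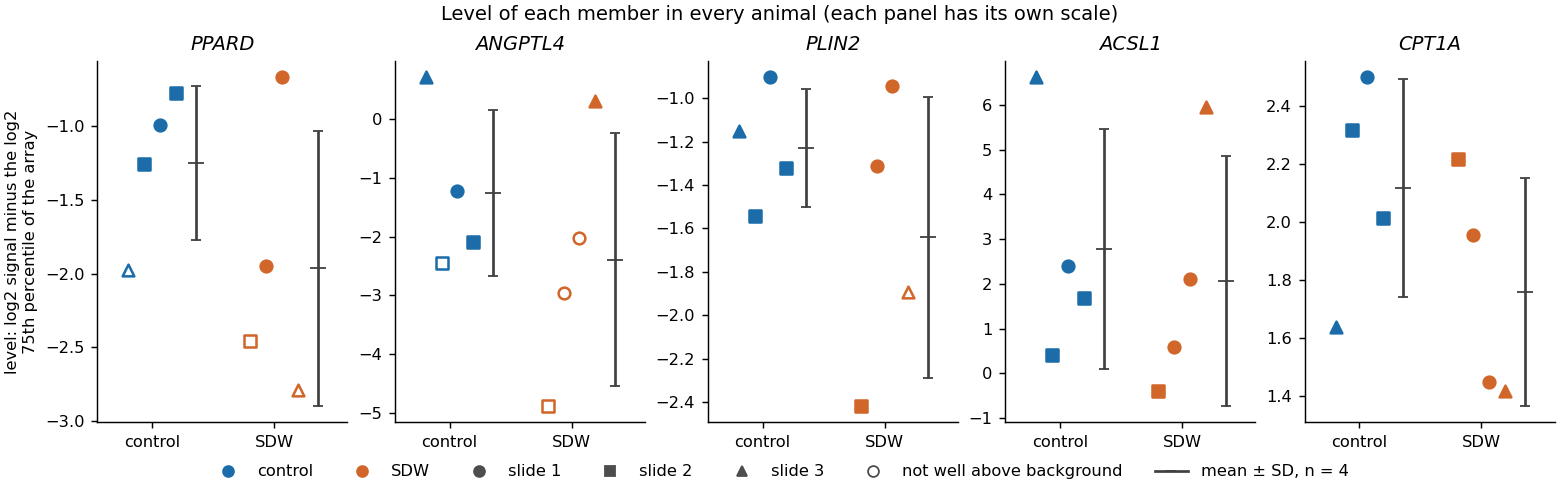
Level of PPARD, ANGPTL4, PLIN2, ACSL1 and CPT1A (y axis, log2 processed signal minus the log2 75th percentile of the array) in each animal by diet, with the marker shape giving the slide, open markers giving values not well above background, and bars giving mean ± SD of 4 animals. The 2 animals of slide 3 (triangles) lie far above the rest for ACSL1 and ANGPTL4, and the diets overlap in all 5 panels.

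The first comparison asked whether the diet shifted these genes. All 5 had a lower mean in SDW animals, and none passed the test. The difference, SDW minus control, was -0.72 (SE 0.46) for PPARD, -1.13 (SE 1.02) for ANGPTL4, -0.41 (SE 0.33) for PLIN2, -0.71 (SE 1.52) for ACSL1 and -0.36 (SE 0.28) for CPT1A. In limma over all 17352 kept probes the unadjusted p was 0.148, 0.293, 0.245, 0.649 and 0.235 in that order, and the adjusted p rounded to 1.00 for each. No kept probe passed an adjusted p of 0.05 (0%), 251 (1.45%) had an unadjusted p under 0.05, and 47.1% of kept probes were lower in SDW animals. No member had every SDW animal below every control, as 0.386% of kept probes did. For ACSL1 the direction rested on single animals: the difference was 0.56 without control 1, 0.10 without SDW 1 and -2.01 without SDW 4. The ANGPTL4 difference, with 4 of 8 values not well above background, ranged from -2.03 without SDW 4 to -0.31 without SDW 1 and was -0.48 without control 1. That of PLIN2 was -0.15 without SDW 1 and -0.64 without SDW 3, and that of PPARD was -1.15 without SDW 3 and -0.44 without SDW 4. That of CPT1A was -0.23 without control 3.

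Within slides the same direction recurred. ACSL1 was lower in SDW animals by a mean difference of -1.06 on slide 1, -1.44 on slide 2 and -0.65 on slide 3. ANGPTL4 gave -1.28, -2.61 and -0.41 on the same slides, of which the first 2 set SDW values that are all at background against controls partly so, and are no exact sizes. PPARD gave -0.32, -1.45 and -0.82, and PLIN2 -0.22, -0.98 and -0.74. CPT1A gave -0.80, 0.05 and -0.22. By sign, 4 of the 5 genes were lower in SDW animals on all 3 slides, as were 12.7% of kept probes. Each such value sets only 1 or 2 animals of a diet against 1 or 2 of the other. The 4 genes also varied together within slides (r of 0.83 to 0.94 between them), so they do not count as 4 separate observations.

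With slide as a fixed block in limma, the difference was -1.53 for ANGPTL4 (SE 0.39, unadjusted p = 0.00350), -1.09 for ACSL1 (SE 0.40, unadjusted p = 0.0247), -0.64 for PLIN2 (SE 0.23, unadjusted p = 0.0220) and -0.86 for PPARD (SE 0.34, unadjusted p = 0.0325). It was -0.33 for CPT1A (SE 0.25, unadjusted p = 0.214). The SE of ACSL1 was 1.52 without the block. Thus 4 of 5 members were lower at an unadjusted p under 0.05, against 3.19% of kept probes lower at that level (6.59% in either direction). These 4 genes are not independent of each other: as deviations from slide means, r between them was 0.83 to 0.94. The count is therefore no measure of an excess over that share. None passed after adjustment over all kept probes: the limma adjusted p was 0.732 for these 4 and 0.802 for CPT1A, and no kept probe passed (0%). The ANGPTL4 value includes 4 animals, and the PPARD value 3, that were not well above background. The ANGPTL4 probe passed the filter with the fewest arrays it accepts, 3 of controls and 1 of an SDW animal. Its p-value and its place in the count are therefore not independent of that filter. The count of 4 was not stable. It fell to 1 (ANGPTL4, limma unadjusted p = 0.0396) without SDW 1, to 2 without control 4 and to 2 without slide 3, and the other single left-out animals gave 2 to 4; leaving out either animal of slide 3 gives the fit without that slide. All 5 differences stayed below 0 in each of these fits. With normexp background correction the count was 2, and the difference shrank to -0.32 for ANGPTL4, -0.27 for PPARD and -0.24 for PLIN2.

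**Figure D2:**
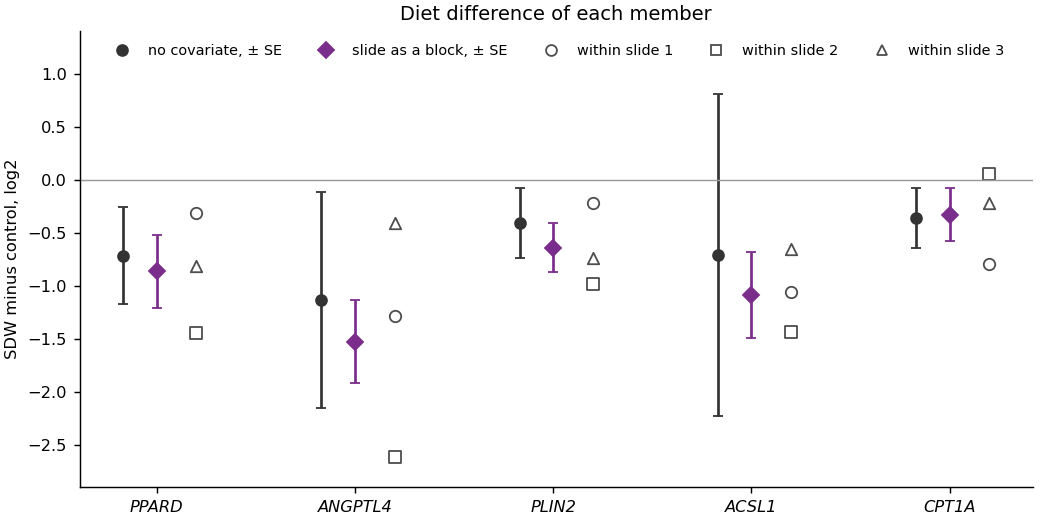
Difference SDW minus control (y axis, log2) for each of the 5 genes without covariate (circles, ± SE, 4 against 4 animals), with slide as a block (diamonds, ± SE) and within each slide (open markers). Within slides, ANGPTL4, PPARD, PLIN2 and ACSL1 are below 0 on all 3 slides, and CPT1A lies at 0.05 on slide 2.

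For ACSL1 and ANGPTL4 the separation of slide 3 was larger than the diet difference. It was noticed in these data before it was tested, and the test is the slide term of the limma fit with slide and diet. ACSL1 was higher by 5.15 (SE 0.45), a fold of 35.5, with a mean level of 6.29 in the 2 animals of slide 3 against 1.14 ± 1.09 (SD, n = 6) in the others; the limma adjusted p was 0.000381. ANGPTL4 was higher by 3.11 (SE 0.43), a fold of 8.65 in which 4 of the 6 other animals were not well above background, with a limma adjusted p of 0.00277. Its probe was well above background on 4 arrays, the fewest that the filter accepts, and 2 of them were those of slide 3. The probe was thus kept only through slide 3, and its adjusted p is given as a description. PPARD (-1.04, limma adjusted p = 0.0958), CPT1A (-0.55, limma adjusted p = 0.204) and PLIN2 (-0.11, limma adjusted p = 0.798) did not pass. In this contrast 16.1% of kept probes passed, 7.53% higher and 8.61% lower, so passing it is common. By size ACSL1 ranked 7 from the top of 17352; the size for ANGPTL4, against values at background, cannot be ranked exactly. Of the 6 probes above ACSL1, the only one with a gene name was SREBF1, a transcription factor of lipid synthesis. ACSL1 kept a difference of 4.51 with normexp background correction, whereas that of ANGPTL4 fell to 0.87 (limma adjusted p = 0.0113). With 1 animal of slide 3 left out the difference was 5.45 (without control 1) and 4.85 (without SDW 4) for ACSL1, and 3.88 and 2.34 for ANGPTL4; slide 3 is then a single array assumed to vary like the rest, and these are given as values only.

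**Figure D3:**
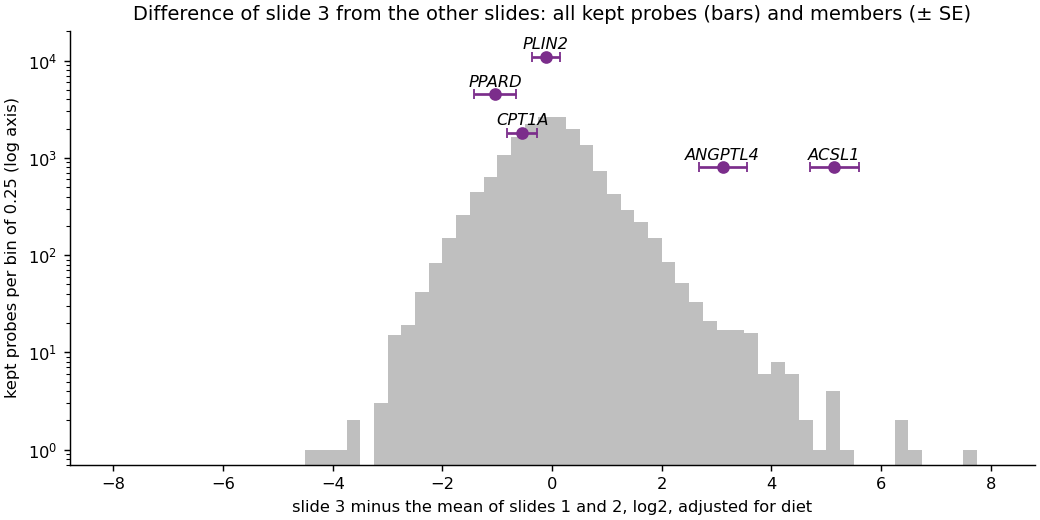
Distribution over the 17352 kept probes (grey bars, log y axis, bins of 0.25) of the difference between slide 3 and the mean of slides 1 and 2 (x axis, log2, adjusted for diet), with the 5 genes as points ± SE, whose height has no meaning. ACSL1 at 5.15 lies in the far upper tail, and PLIN2, CPT1A and PPARD lie between -1.04 and -0.11. ANGPTL4 is drawn at 3.11, but most of the values it is set against are at background, so its place is not exact.

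Another acyl-CoA synthetase went the opposite way. ACSL4, which prefers arachidonic acid, had a level of 3.11 in control 1 and 3.57 in SDW 4 and of 5.10 to 5.90 in the other 6 animals. It was lower on slide 3 by a log2 difference of -2.15 (SE 0.28, limma adjusted p = 0.00212). The other 4 kept ACSL4 probes were lower too, by -1.14 to -0.41, and 1 of them passed (limma adjusted p = 0.0201). Of the 41 listed fatty acid genes with a kept probe, 4 passed as higher on slide 3 and 2 as lower. The higher ones were PLIN3, another droplet protein (1.88), DGAT1, which makes triglyceride (1.64), CPT1B, the muscle form of the carnitine acyltransferase (1.43), and LIPE, hormone-sensitive lipase (0.89); the lower ones were ACSL4 and SCP2, the peroxisomal sterol carrier protein (-1.11). These 6 were named after their values were seen, and as a share they lie close to the 16.1% of all kept probes.

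Blood cell markers moved in part with slide 3, and their part in these results was not tested. Of 16 neutrophil markers 6 had a kept probe. NCF1, a subunit of the phagocyte oxidase (2.30, limma adjusted p = 0.00249), and TREM1, a myeloid receptor (1.44, limma adjusted p = 0.0196), were higher on slide 3, and LTF, ALOX5AP and MMP9 did not pass, at -0.053 to 0.72. The mean level of the 6, centred on each gene, was 0.93 in control 1 and 0.13 in SDW 4, and -0.60 to 0.42 in the others. All 6 were lower in SDW animals (47.1% of kept probes were), by -0.87 to -0.11. None had an unadjusted limma p under 0.05. With slide as a block 2 of 6 did, both lower, against 3.19% of kept probes lower at that level. By diet the mean of the 6 ran from -0.26 to 0.93 in controls and from -0.60 to 0.13 in SDW animals. Of 5 measured monocyte markers CD14 was higher on slide 3 (1.33, limma adjusted p = 0.0216) and the other 4 (LYZ, CD163, CCR2 and FCGR3A) were at -1.27 to -0.018, none past the test. By diet CCR2, a chemokine receptor, was higher in SDW animals by 0.88 (limma unadjusted p = 0.00474) and the other 4 lay between -0.73 and 0.10. With slide as a block CCR2 was higher by 0.84 (limma unadjusted p = 0.00450). CD14 went the other way in that fit, at -0.90 (limma unadjusted p = 0.0110). LYZ, CD163 and FCGR3A lay between -0.14 and 0.02. Of all kept probes 6.59% had such a p under 0.05 in either direction. The centred mean of 4 platelet markers was -0.51 in control 1 and -0.43 in SDW 4, below the -0.03 to 0.31 of the others. That of 4 eosinophil and basophil markers ran from -0.63 to 0.05 in controls and from 0.14 to 0.51 in SDW animals. GATA2 among them differed by -0.21 and CCR3, MS4A2 and ALOX15 by 0.53 to 0.97. With slide as a block MS4A2 was higher by 1.16 (limma unadjusted p = 0.00476) and ALOX15 by 0.86 (limma unadjusted p = 0.0314). CCR3 (0.50) and GATA2 (-0.34) were not under 0.05 in that fit. On slide 3 GATA2 was higher (1.93, limma adjusted p = 0.00358) and CCR3 lower (-1.12, limma adjusted p = 0.0206). The means of monocyte, T cell, B cell and NK markers overlapped between the diets and between slide 3 and the rest. On slide 3 CD3E, a T cell receptor subunit, was higher (1.32, limma adjusted p = 0.0129) and CD8A lower (-1.29, limma adjusted p = 0.00831). By diet GNLY, a cytotoxic granule protein, was lower in SDW animals by a difference of -0.71 (limma unadjusted p = 0.0391; 0.00768 with slide as a block). Of the 5 adipocyte markers only LEP was kept, and of the 4 hepatocyte markers none was. None of the 8 erythroid markers was matched to a probe, so red cell RNA was not followed. The lowest level that was well above background on an array was -1.75 in control 1 and -2.0 in SDW 4, and -2.89 to -2.04 in the others; its part was not tested either.

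The second question was whether the targets varied with the receptor. Over all 8 animals no relation passed. Pearson r with PPARD was 0.73 for PLIN2 (exact permutation p = 0.0351, 0.141 after Benjamini-Hochberg over the 4 relations), 0.25 for CPT1A (exact permutation p = 0.535, adjusted 0.713), -0.07 for ANGPTL4 (exact permutation p = 0.861, adjusted 0.861) and -0.30 for ACSL1 (exact permutation p = 0.448, adjusted 0.713). Spearman rho was 0.64, 0.24, -0.05 and -0.07 in the same order, with exact permutation p from 0.0962 to 0.935. Without SDW 4 and SDW 3, the animals farthest from the median of PPARD, r was 0.62 for PLIN2, 0.37 for CPT1A, 0.34 for ANGPTL4 and 0.033 for ACSL1. PPARD was not well above background in 3 of the 8 animals, and all levels of an array share its scaling.

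For ANGPTL4 and ACSL1 the animals of slide 3 form a cluster of their own, high in the target and low in PPARD, so the r over all 8 mixes 2 clusters. Over the 6 animals of slides 1 and 2 alone r was 0.89 for ANGPTL4 (exact permutation p = 0.0153, adjusted 0.05), 0.87 for ACSL1 (exact permutation p = 0.0250, adjusted 0.05), 0.81 for PLIN2 (exact permutation p = 0.0444, adjusted 0.0593) and -0.29 for CPT1A (exact permutation p = 0.588). None was under an adjusted 0.05, and rho was 0.83, 0.77, 0.60 and -0.31, with adjusted exact permutation p of 0.206 or more. Among these 6, ANGPTL4 was well above background only in control 3 and control 4, and PPARD was not in SDW 1, so the ANGPTL4 relation is mostly between readings at background and is given as a description. Without SDW 1 and SDW 2 r over the remaining 4 was 0.19 for ANGPTL4, 0.70 for ACSL1 and 0.59 for PLIN2, so the ANGPTL4 value rests on those animals.

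As deviations from slide means over all 8, r was 0.88 for ANGPTL4 (exact permutation p = 0.0417), 0.94 for PLIN2 (exact permutation p = 0.0278), 0.92 for ACSL1 (exact permutation p = 0.0278) and -0.14 for CPT1A (exact permutation p = 0.819). The first 3 had an adjusted p of 0.0556; there are 72 orders within slides, and 0.0139 is the smallest p they can give. High values of r over all 8 and over the 6 animals were not rare among kept probes. For deviations from slide means no such share is given here. Over all 8 animals 5.85% of kept probes had an r with PPARD at least as high as PLIN2. Over the 6 animals 5.61% had one at least as high as ANGPTL4, 6.67% as ACSL1 and 9.35% as PLIN2.

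**Figure D4:**
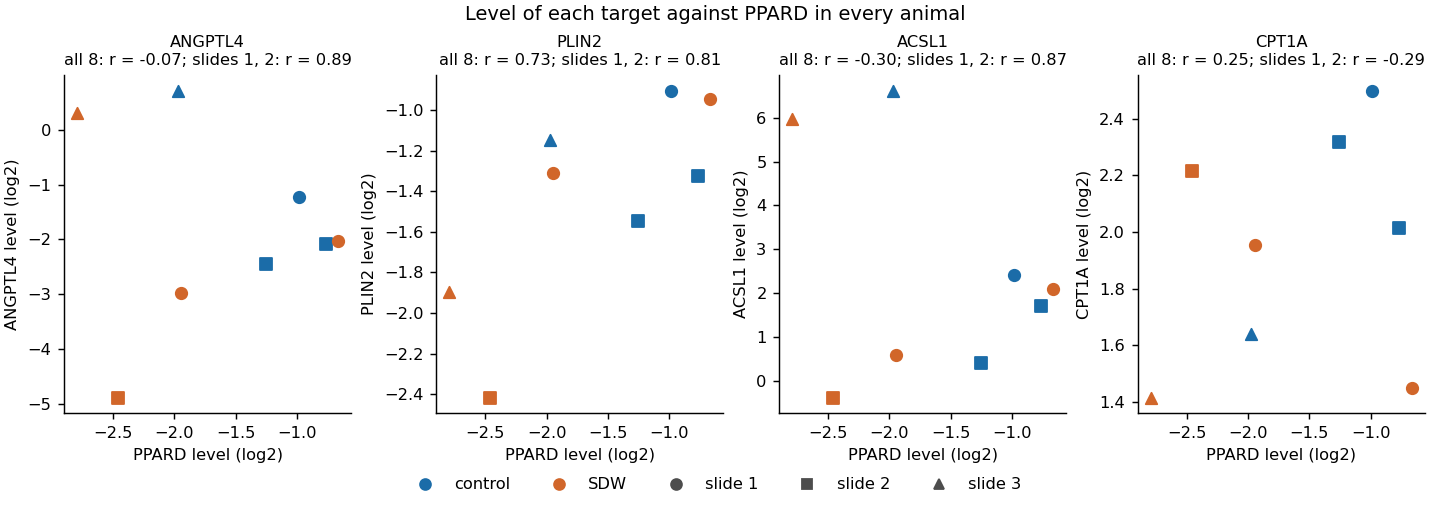
Level of each target (y axes, log2) against the level of PPARD (x axes, log2) in the 8 animals, coloured by diet, with marker shape giving the slide and r over all 8 and over the 6 animals of slides 1 and 2 above each panel. The slide 3 animals (triangles) lie apart for ANGPTL4 and ACSL1, for which r is -0.07 and -0.30 over all 8 and 0.89 and 0.87 without them; no relation passed after adjustment.

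Among the targets themselves, over the 6 animals of slides 1 and 2 and as a description, r was 0.94 between ANGPTL4 and PLIN2, 0.90 between ANGPTL4 and ACSL1 and 0.90 between PLIN2 and ACSL1, while CPT1A had r of -0.27 to -0.02 with the other targets. SDW 1 had the lowest level of ANGPTL4, PLIN2, ACSL1 and PPARD among these 6, and of ANGPTL4, PLIN2 and ACSL1 among all 8. Among named genes, those most like ACSL1 in deviations from slide means were MC1R (r = 0.98), VNN1 (0.98), a pantetheinase, and CERS4 (0.98), a ceramide synthase. For ANGPTL4 they were PSP-II (0.99), ADRB1 (0.99) and TAP1 (0.98), for PPARD CCND3 (0.99), CYP19A1 (0.99) and HR (0.98), for PLIN2 SLA-3 (0.98), HSP90AB1 (0.97) and CCND3 (0.97), and for CPT1A CTSH (0.99), RPS6 (0.98) and CD40 (0.97). Over all 8 animals without the slide means, the genes most like PPARD included CEND1 (0.94) and E4 (0.93), those most like PLIN2 were STAT4 (0.94), CBR1 (0.93) and IGF1 (0.92), and those most like CPT1A were SEPHS2 (0.92), STAT5B (0.91) and HPS3 (0.89). These are descriptions over 8 arrays.

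The wider set of PPAR partners and fatty acid genes showed no common shift. Of 120 listed genes 65 were matched to a probe and 41 had a kept probe; 19 were higher and 22 lower in SDW animals, none with an unadjusted limma p under 0.05 and none after adjustment. Their median difference was -0.02, and that over all kept probes was 0.02. With slide as a block 2 of the 41 had an unadjusted limma p under 0.05, both lower, and none passed after adjustment. Of all kept probes 6.59% had such a p in either direction and 3.19% were lower at that level.

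Among receptors and partners the probes for PPARA, PPARG, RXRA and RXRG were not kept, so PPARD was the only PPAR measured here. Of 4 kept genes 1 was higher and 3 were lower, none past the test. The coactivators of highest level were NCOA2, at 4.59 ± 0.31 in control and 4.70 ± 0.41 in SDW blood (SD, n = 4), and NCOA1, at 4.06 ± 0.26 and 3.94 ± 0.33 (SD, n = 4). Other kept NCOA2 probes gave differences of 0.10 to 0.48. Of 5 genes of uptake and binding 3 were higher and 2 lower. The fatty acid binding proteins FABP3 and FABP5 differed by -0.04 (SE 0.26) and -0.03 (SE 0.29), and lipoprotein lipase itself, LPL, was not kept.

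Of 2 kept activation genes, ACSL4 differed between the diets by -0.14 (SE 0.64; its other probes -0.34 to -0.32) and DBI, which carries acyl-CoA, by 0.04 (SE 0.24; its other probe -0.04). Of 9 genes of droplets and triglyceride 5 were higher and 4 lower. The triglyceride lipases PNPLA2 and LIPE differed by 0.01 (SE 0.35) and -0.05 (SE 0.33), and the other kept PNPLA2 probes gave -1.37 to -0.26.

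Of 13 genes of mitochondrial entry and oxidation 3 were higher and 10 lower, with a median of -0.07, none past the test. CRAT, which makes acetylcarnitine, averaged 9.14 ± 0.67 in the control group and 8.66 ± 0.84 under SDW (SD, n = 4); with slide as a block it differed by -0.73 (limma unadjusted p = 0.0433, adjusted 0.732), and its other 3 probes gave -1.04 to -0.58 without the block. UCP2, a mitochondrial carrier of leukocytes, differed by -0.07 (SE 0.32).

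Peroxisomal genes ran the other way in count: 5 of 6 were higher in SDW animals, with a median of 0.27, none past the test. PHYH, which starts the breakdown of phytanic acid, had the smallest p of the whole list, with a difference of 0.41 (SE 0.26, limma unadjusted p = 0.150). CAT, catalase, differed by 0.34 (SE 0.43). Of the genes around malonyl-CoA, which inhibits CPT1A, PRKAG1 and PRKAA2, subunits of AMP-activated kinase, differed by 0.0024 (SE 0.21) and -0.21 (SE 0.72), and the other PRKAG1 probe by -0.60.

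**Figure D5:**
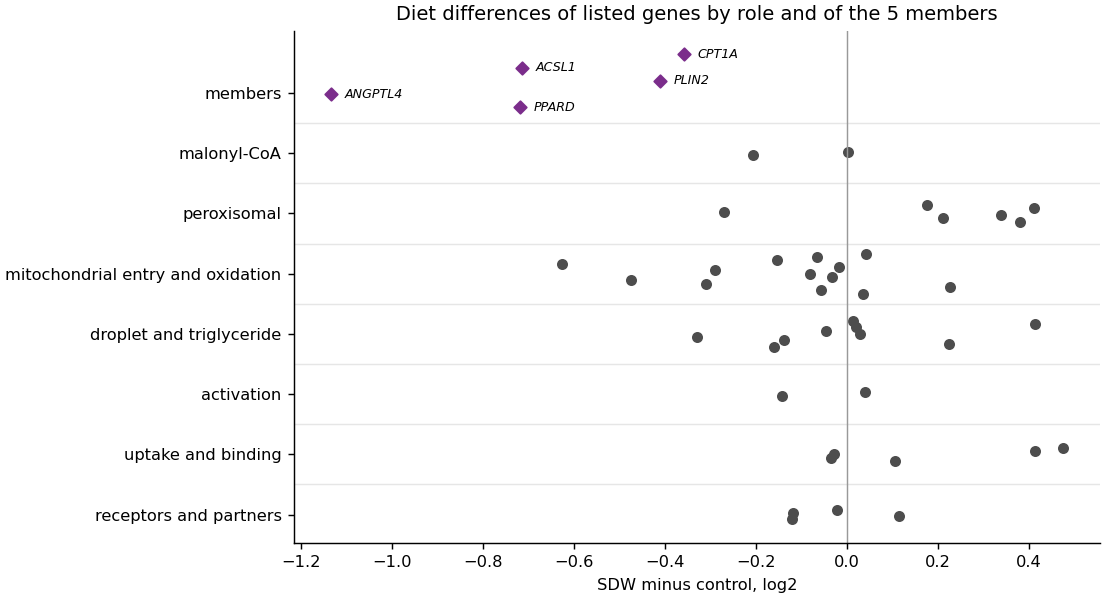
Difference SDW minus control (x axis, log2) for the 41 listed genes with a kept probe, 1 point per gene by role, and for the 5 members (diamonds). The listed genes lie on both sides of 0, from -0.63 to 0.47, and the 5 members lie between -1.13 and -0.36; none passed the test.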

How the data were processed

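Arrays of 1 colour (Cy3) were hybridised with labelled RNA from PAXgene blood, 0.5 µg per animal, per the labels' protocols. The authors deposited the scanner output, with linear spot intensities from Agilent Feature Extraction; the file headers give its version as 10.1.1.1, the submitters' processing notes as 9.5.3.1. The processed signal is background-subtracted, per the file headers, and is not normalized between arrays. In the authors' deposited value table, 7 of 8 columns of intensities match the scanner file of another animal of the same diet, so animals are named by the scanner files.

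Spots that were controls or outliers were dropped, repeat spots averaged, and log2 values taken minus the 75th percentile of each array. Probes read well above background by 4 or more of 8 arrays were kept. Diets were compared with limma 3.58.1 in R 4.3.3 (lmFit, eBayes, two-sided, Benjamini-Hochberg over 17352 probes, threshold 0.05), without covariate and with slide as a block. Correlations used exact two-sided permutations of pairings (Python 3.11.15). They were run over all 8 animals and, since 2 animals formed a cluster, also over the other 6. Where a gene had several kept probes, the brightest on average stood for it. Symbols were matched for 3354 probes through the files and the RefSeq gene table of pig; 40249 are unnamed here.

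Named genes were all members, in each role the 2 of highest level and those with unadjusted p under 0.05, the smallest p of the list, and the 3 named genes most like each member; genes set by the slide contrast, by the slide block or as background were named after their values were seen. Some genes set by this rule are not reported here. Members and lists were chosen with earlier results of these data known. The replicate numbers were not used to pair the animals in the fits reported first. Animals with the same number share the weeks of feeding that the descriptions give, and a fit with the number as a block is among the alternatives. Scripts were tested on simulated data. Alternatives were other background corrections, scalings, filters, blocks and leaving out each array.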

Additional observations from a re-analysis of the deposited data

Results flagged for a closer look

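Among the fatty acid genes named, 40 groups of 4 animals were examined for a sample far from the others, which chance finds in about 1 in 20 groups, and 2 were found. ACSL4 in controls had a level of 3.11 in control 1, far below the other controls (gap over range 0.845). PHYH in SDW animals had a level of 3.25 in SDW 1, far above the other SDW animals (gap over range 0.877).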

How the results depend on the processing

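Over 97 alternative values of the 5 diet differences, 95 were below 0 and none passed (smallest limma adjusted p 0.732). The exceptions in sign were ACSL1 with 1 array left out, whose values ran from -2.01 to 0.56. One of all kept probes passed without slide 3, and none otherwise. Counts at an unadjusted limma p under 0.05 were 251 as reported, 1143 with slide as a fixed block, 632 with slide as a random block, 823 without the filter, 542 without slide 3, 164 with normexp, and 179 to 517 with 1 array left out. With the array median in place of the 75th percentile 58.6% of probes were higher, and without the filter 34.6%, against 52.9%. The replicate block changed no call on the diets (239 probes at an unadjusted limma p under 0.05); deviations of animals with the same number correlated at -0.17, 0.11, 0.33 and -0.38.

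With slide as a block, the count of 4 members became 2 with normexp and without slide 3, and 1 to 4 with an array left out. Over all 8 animals no relation with PPARD passed. The sign of r turned as follows. With normexp it was 0.26 for ANGPTL4, 0.092 for ACSL1 and -0.19 for CPT1A. As deviations from slide means it was 0.88, 0.92 and -0.14, and without slide 3 0.89, 0.87 and -0.29. With an array left out it ran from -0.56 to 0.31 for ANGPTL4 (above 0 without control 1 or SDW 4), from -0.61 to 0.045 for ACSL1 (above 0 without SDW 4) and from -0.089 to 0.63 for CPT1A (below 0 without SDW 4). As deviations from diet means it stayed at -0.28 for ANGPTL4, -0.43 for ACSL1, 0.66 for PLIN2 and 0.031 for CPT1A. PLIN2 kept its sign, from 0.51 with the replicate block to 0.94 within slides. The smallest adjusted exact permutation p over these alternatives was 0.05. Apart from the slide means and the left-out slide, the cause was not tested.

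Not run were another probe of a member (none was kept) and the all-array filter for ANGPTL4, PPARD and PLIN2. PPARD, ANGPTL4 and PLIN2 lie near background, which limits how far their differences can be read.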
